A study of Mus musculus with 6 samples.

Results

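The constitutive proteasome genes were taken from the deposited expression table by name. Every row whose symbol was Psma, Psmb, Psmc, Psmd or Psme followed only by a number was kept, the 3 inducible immunoproteasome genes Psmb8, Psmb9 and Psmb10 were left out, and rows at 0 in all 6 libraries were dropped. This gave 40 genes of the 38924 rows in the table. By role they were 8 alpha subunits, 8 beta subunits, 6 ATPases of the base, 3 other base subunits, 8 lid subunits, 3 chaperones of base assembly and 4 activators. RNA sequencing was done on sorted bone marrow cells of C57BL/6 mice. In the leukemia group (2 libraries) recipients had been given marrow transduced with Evi1-GFP and were examined at 6 months. In the preleukemia group (2 libraries) they had received Evi1-GFP marrow and were examined at 4 weeks, and in the mock group (2 libraries) they had received marrow transduced with GFP alone, also at 4 weeks. Cells of every group were GFP+ Lin- c-kit+, so the mock cells carried a vector as well. Evi1 is a transcription factor encoded by the Mecom locus. No GFP library at 6 months was analysed here, so in each comparison with the leukemia libraries the disease stage and the time after transplantation cannot be told apart. The labels do not give the promoter of the vector, the age of the mice or the number pooled. Nor do they say whether replicate libraries are from different mice, so each p-value reflects only library-to-library spread, possibly technical.

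The proteasome is the large protease that degrades proteins tagged with ubiquitin. Its core is a barrel of stacked rings: the outer rings of alpha subunits gate the entrance, and the inner rings of beta subunits carry the proteolytic sites on Psmb5, Psmb6 and Psmb7. A cap docks on the alpha ring, and it consists of a base, whose Psmc ATPases unfold the substrate, and a lid, which removes the ubiquitin chain. The Psme genes encode activators that can dock in place of the cap. In blood cells, immunoproteasome subunits can replace the constitutive proteolytic subunits.

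Mecom, the transduced gene, had 61.7 and 71.5 RPKM in leukemia libraries, 78.0 and 80.1 RPKM in preleukemia libraries, and 0.774 and 0.805 RPKM in mock libraries, which fits the labels. RPKM are reads scaled to exon length and to the reads of the library. The steps between low values implied 19649055 and 21008139 reads in the leukemia libraries, 16922992 and 21641740 in the preleukemia libraries and 20208302 and 21615558 in the mock libraries. At these depths 38 of the members, all but Psma8 and Psmb11, stood on an implied 237 to 7553 reads per library. For 21 of the 38 the implied reads were whole numbers, within 0.02, in all 6 libraries. For the others, among them Psmb1 with the highest value, they were not, so their reads are approximate. Kit, the receptor used in the sort, was present in every library, at 46.8 to 69.2 RPKM. It had 49.3 and 46.8 RPKM in leukemia libraries against 69.2 and 57.7 RPKM in mock libraries, and was lower in leukemia (log2 change -0.39, limma, adjusted p = 0.0472). Markers of maturing cells also moved. The 10 neutrophil genes summed to 409.9 and 717 RPKM in leukemia libraries, 3879 and 8356 RPKM in preleukemia libraries, and 11.2 and 17.4 RPKM in mock libraries. Most of the leukemia sums came from S100a8, at 227 and 373 RPKM, and S100a9, at 173 and 284 RPKM. Of the 10 genes 3 rose and 7 did not pass in leukemia against mock, and 7 rose and 3 did not pass in preleukemia against mock. The 12 erythroid genes summed to 297 and 339.7 RPKM in leukemia libraries, 319 and 225 RPKM in preleukemia libraries, and 410.2 and 196 RPKM in mock libraries, and 9 of 11 tested fell in leukemia against mock while 1 rose. Without the gene that rose, which had 266 and 298 RPKM in leukemia, the other 11 summed to 30.6 and 42.2 RPKM in leukemia, 255 and 180.0 RPKM in preleukemia, and 408 and 190.0 RPKM in mock. The 8 monocyte genes summed to 557 and 580.4 RPKM in leukemia libraries, 423 and 382 RPKM in preleukemia libraries, and 231 and 316 RPKM in mock libraries. In leukemia against mock 3 of the 8 rose and 2 fell, and without the most abundant gene the sums were 217 and 217 RPKM in leukemia, 159 and 133 RPKM in preleukemia, and 135 and 167 RPKM in mock. Mast-cell and basophil genes summed to 18.5 and 18.8 RPKM in leukemia, 26.0 and 23.0 RPKM in preleukemia, and 106 and 76.3 RPKM in mock. The B-lymphoid genes summed to 12.5 and 11.9 RPKM in leukemia, 17.9 and 19.5 RPKM in preleukemia, and 40.8 and 42.4 RPKM in mock. In leukemia most of the mast-cell and basophil sums was Mcpt8, at 15.9 and 15.4 RPKM, and all 6 of these genes fell against mock. Nearly all of the B-lymphoid sums in leukemia was Cd79b, at 12.2 and 11.7 RPKM. Of the 6 B-lymphoid genes tested, Cd79b rose in leukemia against mock and 5 fell. The megakaryocyte genes summed to 3.60 and 12.4 RPKM in leukemia, 66.3 and 49.1 RPKM in preleukemia, and 32.4 and 32.8 RPKM in mock, and the T and NK genes to 7.04 and 14.7 RPKM in leukemia, 66.8 and 67.4 RPKM in preleukemia, and 88.1 and 47.5 RPKM in mock. Nearly all of the T and NK sums was Nkg7, at 6.83 and 14.6 RPKM in leukemia, 66.7 and 67.2 RPKM in preleukemia, and 87.7 and 47.1 RPKM in mock. Only this 1 of the 7 genes passed the filter on low values. The part of these cell types in the results below was not tested, and in bulk RNA fewer cells of a type cannot be told apart from less RNA per cell.

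Most constitutive proteasome genes had their lowest levels in the leukemia libraries. Together the 40 genes summed to 1193 and 1125 RPKM in leukemia libraries, 1427 and 1368 RPKM in preleukemia libraries, and 1456 and 1316 RPKM in mock libraries. Both leukemia libraries were thus below the other 4, while preleukemia and mock overlapped. As a share of all RPKM in a library, the genes took 0.532% and 0.507% in leukemia, 0.567% and 0.549% in preleukemia, and 0.613% and 0.566% in mock. Of the 39 genes that passed the filter of 1 RPKM in 2 libraries, 26 (66.7%) had both leukemia libraries below the other 4, against 24.1% of the 10958 genes that passed it. Leukemia 2 held the lowest value for 27 of the 39 (69.2%), against 20.6% of all genes, leukemia 1 for 6 (15.4%), against 17.5%, and mock 2 for 6 (15.4%), against 28.1%. The RPKM of the leukemia libraries also summed to less over all rows, 224042 and 221911, against 251544 and 249287 in preleukemia libraries and 237367 and 232409 in mock libraries.

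**Figure D1:**
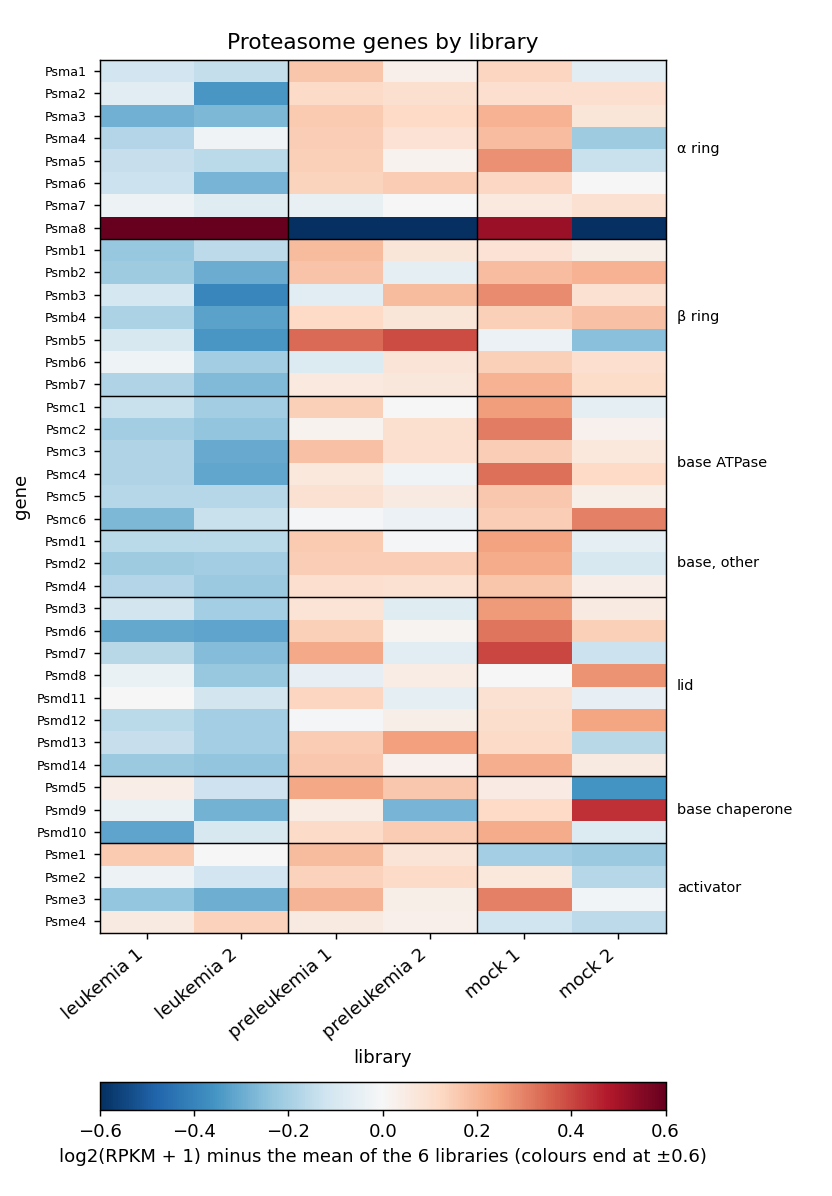
Heat map of the 39 tested proteasome genes (rows, grouped by role) in the 6 libraries (columns, 2 each of leukemia, preleukemia and mock), coloured by log2(RPKM + 1) minus the mean of the 6 libraries, with colours ending at ±0.6. Most rows are blue in both leukemia columns. Rows that are not include Psma8, Psme1, Psme4, Psmd5 and Psmd11.

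In leukemia against mock, 10 of the 39 tested genes fell and 0 rose (limma on log2(RPKM + 1) over 10958 genes, adjusted p under 0.05). Among all genes tested 13.5% fell and 12.1% rose in that comparison, so the 10 that fell, 25.6% of the members tested, stood above the share in all genes. At an unadjusted p under 0.05, 20 members were lower and 2 higher, against 21.6% and 18.4% of all genes. The median log2 change of the members was -0.27, against -0.04 over all genes and -0.07 over the 3584 genes at a similar level (11.4 to 61.4 RPKM). In 30 of the 39 members both leukemia libraries lay below both mock libraries, against 35.5% of all genes. In 3 of the 39, Psma8, Psme1 and Psme4, both lay above, against 30.0% of all genes. The 10 calls depended on the libraries. Leaving out either leukemia library lost all of them, either preleukemia library most of them, and either mock library at least 1. The median log2 change of the members was -0.32 without leukemia 1 and -0.27 without leukemia 2 or either preleukemia library. It was -0.21 without mock 1 and -0.35 without mock 2.

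In leukemia against preleukemia, 5 members fell and 0 rose, while 13% of all genes fell and 5.27% rose. That is 12.8% of the members, about the share in all genes. At an unadjusted p under 0.05, 16 were lower and 1, Psma8, was higher, against 23.4% and 10.4% of all genes. The median log2 change of the members was -0.27 against -0.09 over all genes. Both leukemia libraries lay below both preleukemia libraries in 31 of the 39 members, against 46.0% of all genes. They lay above in 2 of the 39, against 24.7% of all genes. Quantile normalization moved the median of all genes by over 0.1 in this comparison, to 0.03, and that of the members to -0.14; relative to all genes the members then stood at -0.17, and at -0.18 in the values as deposited. The genes called lower were 937 of 1903 called after quantile normalization and 1428 of 2006 as deposited, and 1 member was called under it. The calls were lost when a leukemia or preleukemia library was left out, and fewer of all genes were called too. Without a mock library more members and more of all genes were called, with Psma8 among them pointing higher. The median log2 change of the members was -0.29 without leukemia 1 and -0.24 without leukemia 2. It was -0.22 without preleukemia 1, -0.30 without preleukemia 2 and -0.27 without either mock library.

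In preleukemia against mock, 1 member rose and 0 fell, while 13.5% of all genes rose and 6.02% fell. At an unadjusted p under 0.05, 2 were higher and 1 lower, against 22.8% and 12.9% of all genes. The median log2 change of the members was -0.02 against 0.05 over all genes. Both preleukemia libraries lay below both mock libraries in 9 of the 39 members, against 25.5% of all genes, and above in 7, against 37.2%. The first count rested on the scaling: it was 15 after quantile normalization, against 34.4% of all genes, and 18 after TMM-like scaling, against 31.6%. The split of calls over all genes, 1480 higher and 660 lower as deposited, was 1180 higher and 1052 lower after quantile normalization. The 3 comparisons share libraries, so their values are given side by side and are not independent.

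**Figure D2:**
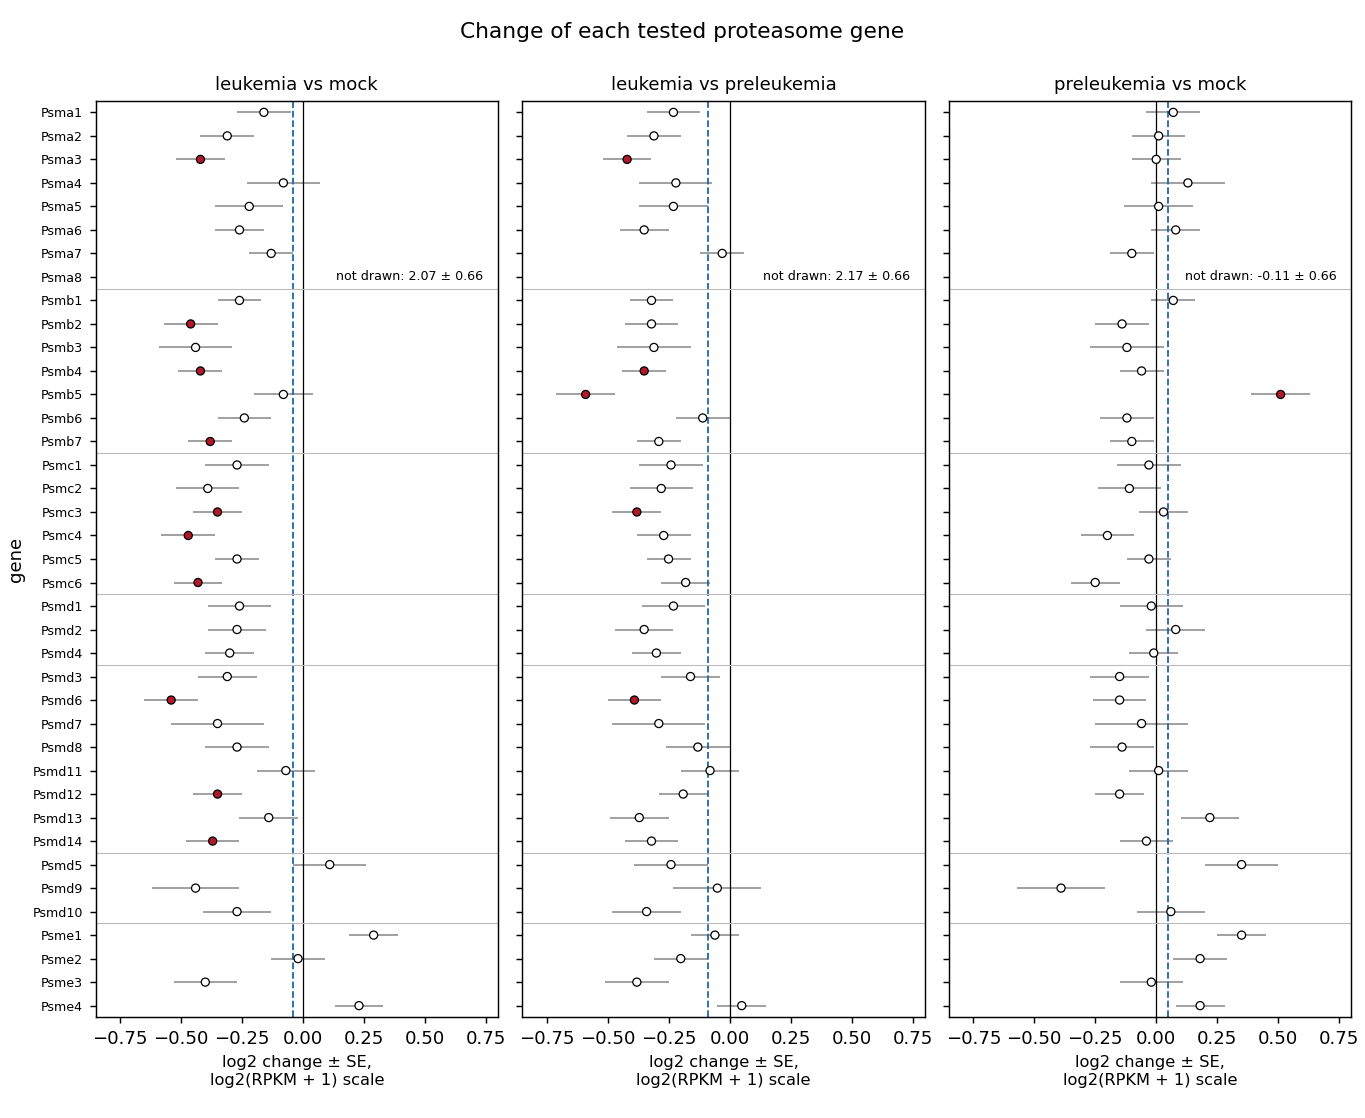
Log2 change of each of the 39 tested proteasome genes with its SE on the log2(RPKM + 1) scale (x axis) in leukemia vs mock, leukemia vs preleukemia and preleukemia vs mock (2 libraries per group; filled, adjusted p under 0.05). The dashed line is the median of all genes tested; 10, 5 and 1 genes are filled in the 3 panels, and Psma8 is given as a number.

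The 8 alpha-ring genes summed to 297 and 277 RPKM in leukemia libraries, 341 and 330.2 RPKM in preleukemia libraries, and 352 and 309 RPKM in mock libraries. Among them 1 fell and 7 did not pass in leukemia against mock, with a median log2 change of -0.19; 1 fell and 7 did not pass in leukemia against preleukemia, with a median of -0.23; and none passed in preleukemia against mock, with a median of 0.01 (0 also at an unadjusted p under 0.05). The 1 call in leukemia was 12.5% of the class, about the share of all genes that fell (13.5% against mock, 13% against preleukemia). The gene that fell was Psma3, an alpha-ring subunit, which had 14.6 and 14.8 RPKM in leukemia libraries, 20.2 and 19.7 RPKM in preleukemia libraries, and 21.0 and 19.0 RPKM in mock libraries. Both leukemia libraries were below all other libraries, and the preleukemia values lay within the mock range. Psma3 fell by 0.42 ± 0.10 on the log2 scale against mock (SE, limma, adjusted p = 0.0242) and by 0.42 ± 0.10 against preleukemia (adjusted p = 0.0313). The mean levels of the class over the 6 libraries ran up to 70.7 RPKM for Psma2, an alpha subunit, with 67.2 and 54.9 RPKM in leukemia, 76.2 and 75.0 RPKM in preleukemia, and 75.4 and 75.3 RPKM in mock. Psma7, another ring subunit, varied least of the 39 tested genes, at 30.6 and 29.7 RPKM in leukemia, 30.3 and 31.4 RPKM in preleukemia, and 32.7 and 33.4 RPKM in mock. These 2 genes, and Psma8 and Psmb11 below, were chosen after their values were seen.

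Psma8, the testis-specific alpha subunit that takes the place of Psma7 in spermatogenic cells, pointed the other way. It had 9.73 and 7.30 RPKM in leukemia libraries, 1.15 and 1.04 RPKM in preleukemia libraries, and 4.07 and 0 RPKM in mock libraries. Both leukemia libraries were the highest, and the mock libraries differed from each other by more than the preleukemia libraries did from either. The log2 change was 2.07 ± 0.66 against mock (limma, adjusted p = 0.061) and 2.17 ± 0.66 against preleukemia (adjusted p = 0.0656), and neither passed the test. The change against mock was 3.72 with a pseudocount of 0.1 and did not pass (adjusted p = 0.113), and it passed in 4 of 15 alternatives, at 1.00 with a pseudocount of 5, at 2.07 with the replicate block, at 3.24 without mock 1 and at 0.90 without mock 2. The change against preleukemia passed in 5 of 15 alternatives, at 1.14 to 2.17. The log2 change of -0.11 in preleukemia against mock turned to 1.07 without mock 1 (adjusted p = 0.0119), to -1.28 without mock 2 (adjusted p = 0.0128) and to 0.89 with a pseudocount of 0.1 (adjusted p = 0.707), so no direction is read from it. Reads that match both Psma8 and Psma7 cannot be assigned from these data, since the counting of such reads is not given in the sources used here.

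The 8 beta-ring genes summed to 277 and 256 RPKM in leukemia libraries, 346 and 339 RPKM in preleukemia libraries, and 340.2 and 326 RPKM in mock libraries. Of the 7 tested, 3 fell in leukemia against mock (median log2 change -0.38), 2 fell in leukemia against preleukemia (median -0.32) and 1 rose in preleukemia against mock (median -0.10). As shares of the class these were 42.9%, 28.6% and 14.3%, where 13.5% and 13% of all genes fell and 13.5% rose. The eighth, Psmb11, the beta subunit of the thymus proteasome, did not pass the filter: it was at 0.0112 and 0 RPKM in leukemia, 0 and 0.0109 RPKM in preleukemia, and 0 and 0.198 RPKM in mock.

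Psmb5, the subunit with the chymotrypsin-like site and the target of bortezomib, had 49.4 and 41.3 RPKM in leukemia libraries, 67.3 and 69.7 RPKM in preleukemia libraries, and 51.6 and 44.3 RPKM in mock libraries. Both preleukemia libraries were above the other 4, and leukemia and mock overlapped. Psmb5 rose by 0.51 ± 0.12 on the log2 scale in preleukemia against mock (SE, limma, adjusted p = 0.0334), a mean 42.8% higher, and fell by 0.59 ± 0.12 in leukemia against preleukemia (adjusted p = 0.022). In leukemia against mock its log2 change was -0.08 ± 0.12 (adjusted p = 0.669). The rise in preleukemia did not pass without preleukemia 1 (adjusted p = 0.14), without preleukemia 2 (adjusted p = 0.196), without mock 2 (adjusted p = 0.0811) or with no filter on low values (adjusted p = 0.0761). An exon of Psmb5 overlaps the microRNA gene Mir686 on the same strand in the GENCODE M21 annotation, so reads of the 2 cannot be told apart.

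Psmb5 was set against the other beta subunits within each library, which removes differences in depth and scaling. Its ratio to the mean of Psmb1, Psmb2, Psmb3, Psmb4, Psmb6 and Psmb7 was 1.30 and 1.15 in leukemia libraries, 1.45 and 1.55 in preleukemia libraries, and 1.07 and 0.944 in mock libraries. The preleukemia ratios were the highest, the mock ratios the lowest, and no 2 groups overlapped. This ratio was computed only for Psmb5, the 1 member called in preleukemia against mock. It uses the same Psmb5 values as that call and is no separate support for it. The ratios are a description with no test: with 2 libraries per group an exact two-sided permutation p cannot go below 0.333.

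The other proteolytic subunits had no such peak. Psmb6, with the caspase-like site, had 24.3 and 21.3 RPKM in leukemia libraries, 23.3 and 26.2 RPKM in preleukemia libraries, and 27.4 and 26.6 RPKM in mock libraries. Leukemia and preleukemia overlapped, both lay below mock, and the log2 change in leukemia against mock was -0.24 ± 0.11 (limma, adjusted p = 0.163). Psmb7, with the trypsin-like site, had 35.1 and 33.0 RPKM in leukemia libraries, 41.6 and 41.9 RPKM in preleukemia libraries, and 46.3 and 43.2 RPKM in mock libraries. The groups did not overlap, and Psmb7 fell by 0.38 ± 0.09 in leukemia against mock (adjusted p = 0.0256), while the change of -0.29 ± 0.09 against preleukemia did not pass (adjusted p = 0.0764).

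Psmb2 and Psmb4, subunits of the inner ring without a proteolytic site, were the other beta genes that fell against mock. Psmb4 had 54.2 and 49.3 RPKM in leukemia libraries, 67.3 and 65.1 RPKM in preleukemia libraries, and 68.5 and 70.1 RPKM in mock libraries, with no overlap between groups. It fell by 0.42 ± 0.09 against mock (limma, adjusted p = 0.0204) and by 0.35 ± 0.09 against preleukemia (adjusted p = 0.0439). Psmb2 had 35.5 and 33.4 RPKM in leukemia libraries, 46.7 and 39.7 RPKM in preleukemia libraries, and 47.2 and 48.0 RPKM in mock libraries. Its leukemia values were the lowest and its mock values the highest, and it fell by 0.46 ± 0.11 against mock (adjusted p = 0.0243), while -0.32 ± 0.11 against preleukemia did not pass (adjusted p = 0.0901). Psmb1 and Psmb3, the remaining constitutive beta genes, passed in no comparison.

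**Figure D3:**
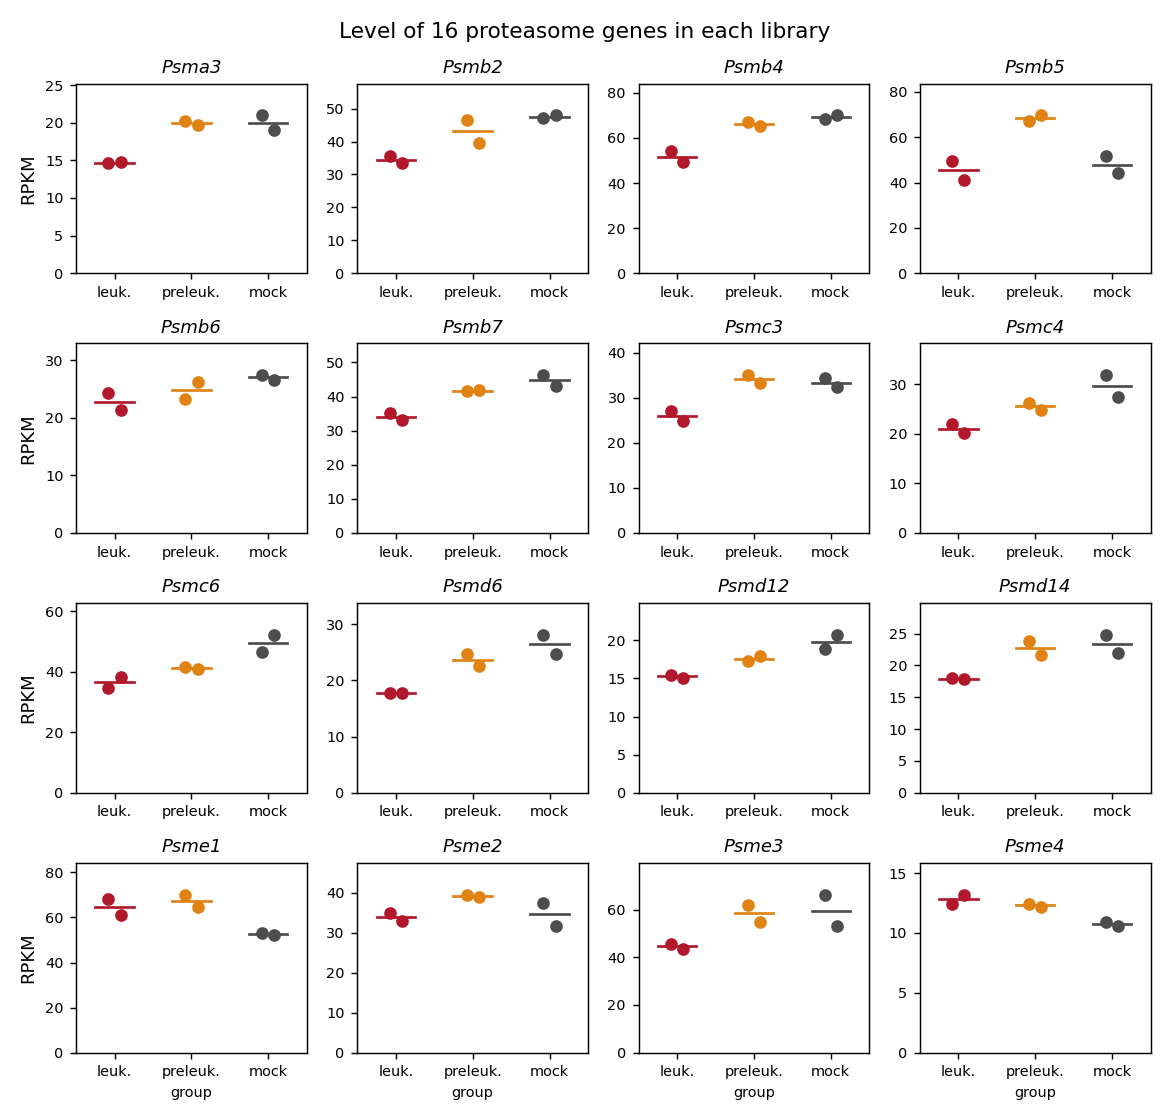
RPKM of 16 proteasome genes (y axes from 0) in the leukemia, preleukemia and mock libraries (2 points per group, with a line at the mean). Psmb5 peaks in preleukemia at 67.3 and 69.7 RPKM, Psme1 and Psme4 are lowest in mock, and the leukemia points are the lowest for Psma3, Psmb2, Psmb4, Psmb7, Psmc3, Psmc4, Psmc6, Psmd6, Psmd12, Psmd14 and Psme3.

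The 6 ATPases form the ring of the base that unfolds substrates and opens the core. They summed to 172 and 169 RPKM in leukemia libraries, 210.3 and 200.3 RPKM in preleukemia libraries, and 229 and 210.3 RPKM in mock libraries. In all 6 both leukemia libraries lay below both mock libraries and below both preleukemia libraries, against 24.1% of all genes tested. The test called 3 of the 6 lower against mock (median log2 change -0.37), where 13.5% of all genes fell. Against preleukemia it called 1 of the 6 lower (median -0.26), where 13% of all genes fell. None passed in preleukemia against mock (median -0.07, with 1 lower at an unadjusted p under 0.05).

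Psmc4, a base ATPase, had 22.1 and 20.1 RPKM in leukemia libraries, 26.3 and 24.8 RPKM in preleukemia libraries, and 31.9 and 27.4 RPKM in mock libraries, and the 3 groups did not overlap. It fell by 0.47 ± 0.11 on the log2 scale against mock (limma, adjusted p = 0.0256). Psmc6, another ATPase of that ring, had 34.8 and 38.3 RPKM in leukemia, 41.7 and 41.0 RPKM in preleukemia, and 46.7 and 52.2 RPKM in mock, again without overlap, and fell by 0.43 ± 0.10 against mock (adjusted p = 0.0255). Psmc3 differed from these in its preleukemia level. It had 27.2 and 24.9 RPKM in leukemia, 35.1 and 33.3 RPKM in preleukemia, and 34.4 and 32.4 RPKM in mock, so that preleukemia and mock overlapped and leukemia was below both. Psmc3 fell by 0.35 ± 0.10 against mock (adjusted p = 0.041) and by 0.38 ± 0.10 against preleukemia (adjusted p = 0.0391). Exons of Psmc3 overlap Slc39a13 on the opposite strand, and the kit, going by its name, keeps no strand information.

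The 3 other base subunits are Psmd1 and Psmd2, the scaffolds on which ubiquitin-binding factors dock, and Psmd4, a ubiquitin receptor. None passed in any comparison. In all 3 both leukemia libraries lay below the other 4, against the 24.1% of all genes given above. At an unadjusted p under 0.05, 1 was lower in leukemia against mock, 2 in leukemia against preleukemia and 0 in preleukemia against mock. Psmd2 had 35.6 and 35.7 RPKM in leukemia libraries, 45.9 and 45.9 RPKM in preleukemia libraries, and 48.5 and 38.6 RPKM in mock libraries, so that the spread in mock was wide (log2 change -0.27 ± 0.12 against mock, limma, adjusted p = 0.146). This gene and Psmd7 below were chosen after their values were seen.

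The 8 lid subunits summed to 183 and 172 RPKM in leukemia libraries, 218 and 205 RPKM in preleukemia libraries, and 235 and 213 RPKM in mock libraries. In leukemia against mock 3 fell and 5 did not pass (median log2 change -0.33), in leukemia against preleukemia 1 fell (median -0.24), and in preleukemia against mock none passed (median -0.10; 0 also at an unadjusted p under 0.05). The count against mock was 37.5% of the class (13.5% of all genes), and that against preleukemia was 12.5% (13% of all genes). Psmd6, a scaffold subunit of the lid, had 17.8 and 17.7 RPKM in leukemia libraries, 24.7 and 22.5 RPKM in preleukemia libraries, and 28.1 and 24.7 RPKM in mock libraries. Its leukemia libraries were nearly equal and lay below all others. It fell by 0.54 ± 0.11 against mock (limma, adjusted p = 0.0131), to a mean 0.672 times that of mock, and by 0.39 ± 0.11 against preleukemia (adjusted p = 0.0486). Among the 10 members that fell against mock it had the largest change.

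Psmd14, the deubiquitinase of the lid, had 18.0 and 17.8 RPKM in leukemia libraries, 23.8 and 21.6 RPKM in preleukemia libraries, and 24.8 and 22.0 RPKM in mock libraries. The leukemia values were the lowest, preleukemia and mock overlapped, and it fell by 0.37 ± 0.11 against mock (limma, adjusted p = 0.0461). Psmd12, another lid scaffold, had 15.5 and 15.0 RPKM in leukemia, 17.3 and 17.9 RPKM in preleukemia, and 18.8 and 20.7 RPKM in mock, without overlap, and fell by 0.35 ± 0.10 against mock (adjusted p = 0.0435). These 2 calls were the nearest to the threshold of the 10. Psmd7, the partner of Psmd14 in the lid, had 40.8 and 38.2 RPKM in leukemia, 54.0 and 43.8 RPKM in preleukemia, and 61.0 and 41.9 RPKM in mock. The mock libraries were further apart than the group means, and the log2 change of -0.35 ± 0.19 did not pass (adjusted p = 0.212). Psmd11, a further scaffold of the lid, overlapped between leukemia and mock, as did Psmd13.

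The 3 chaperones of base assembly, Psmd5, Psmd9 and Psmd10, had low levels, with means over the 6 libraries of 3.84 RPKM for Psmd9 to 12.1 RPKM for Psmd5. None passed in any comparison; at an unadjusted p under 0.05, 1 was lower in leukemia against mock and 0 differed in the other 2. Psmd5 had 12.3 and 10.9 RPKM in leukemia, 14.2 and 13.5 RPKM in preleukemia, and 12.4 and 9.11 RPKM in mock. Psmd9 had 3.63 and 2.92 RPKM in leukemia, 3.92 and 2.93 RPKM in preleukemia, and 4.17 and 5.46 RPKM in mock. Psmd5 was thus highest in preleukemia and Psmd9 highest in mock, both of them chosen after their values were seen.

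The 4 activator genes summed to 161 and 151 RPKM in leukemia libraries, 184 and 171 RPKM in preleukemia libraries, and 168 and 148 RPKM in mock libraries, with leukemia below preleukemia and overlapping with mock. None passed in any comparison. At an unadjusted p under 0.05, 1 was higher and 1 lower in leukemia against mock, 1 was lower in leukemia against preleukemia, and 1 was higher in preleukemia against mock. Their median log2 change was 0.11 in leukemia against mock and 0.18 in preleukemia against mock, against -0.04 and 0.05 over all genes. In leukemia against preleukemia it was -0.13, against -0.09 over all genes. There 3 of 4 pointed lower, as did 6749 of the 10958 genes tested.

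Psme1 and Psme2 encode the interferon-inducible activator ring known for its link to antigen presentation. Psme1 had 68.4 and 61.2 RPKM in leukemia libraries, 70.1 and 64.7 RPKM in preleukemia libraries, and 53.0 and 52.4 RPKM in mock libraries. Both Evi1 groups lay above mock and overlapped with each other. The log2 change was 0.29 ± 0.10 in leukemia against mock (limma, adjusted p = 0.0747) and 0.35 ± 0.10 in preleukemia against mock (adjusted p = 0.0533), neither of which passed. The first passed after quantile normalization (log2 change 0.35, adjusted p = 0.0308) and after TMM-like scaling (0.31, adjusted p = 0.0481). Psme1 overlaps exons of Emc9 on the opposite strand. Psme2 had 35.0 and 33.0 RPKM in leukemia, 39.5 and 38.9 RPKM in preleukemia, and 37.4 and 31.7 RPKM in mock, with leukemia inside the mock range (log2 change -0.02 ± 0.11, adjusted p = 0.91).

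Psme3 encodes the nuclear activator that acts without ubiquitin, and Psme4 the large activator known for histone turnover. Psme3 had 45.6 and 43.6 RPKM in leukemia libraries, 62.0 and 55.0 RPKM in preleukemia libraries, and 66.3 and 53.0 RPKM in mock libraries. Its leukemia values were the lowest, as in most genes of the core, but the log2 change of -0.40 ± 0.13 against mock did not pass (limma, adjusted p = 0.0631). Psme4 had 12.4 and 13.2 RPKM in leukemia, 12.4 and 12.2 RPKM in preleukemia, and 10.9 and 10.6 RPKM in mock. Here mock was the lowest and the Evi1 groups lay next to each other, with a log2 change of 0.23 ± 0.10 in leukemia against mock (adjusted p = 0.129).

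Ratios within a library gave the balance between exchangeable parts. Psmb8, which replaces Psmb5 in the immunoproteasome, stood to Psmb5 as 0.636 and 0.770 in leukemia libraries, 0.561 and 0.541 in preleukemia libraries, and 0.902 and 0.915 in mock libraries, with no overlap between groups. For Psmb9, which replaces Psmb6, the ratio to Psmb6 was 0.521 and 0.549 in leukemia, 0.720 and 0.643 in preleukemia, and 0.547 and 0.573 in mock, highest in preleukemia. For Psmb10, which replaces Psmb7, the ratio to Psmb7 was 0.694 and 0.755 in leukemia, 0.733 and 0.670 in preleukemia, and 0.640 and 0.620 in mock, with both Evi1 groups above mock. The balance thus did not shift the same way at the 3 proteolytic positions. Psme1 relative to the mean of Psma1 to Psma7 was 1.67 and 1.59 in leukemia, 1.44 and 1.37 in preleukemia, and 1.07 and 1.19 in mock, which put the groups in 1 order without overlap. Psme1 relative to Psme2 was 1.96 and 1.86 in leukemia, 1.77 and 1.66 in preleukemia, and 1.42 and 1.65 in mock, again without overlap. A ratio shows unequal change and does not say which gene moved. The ratios of Psme1 use the same values as its changes above and are no separate support for them.

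**Figure D4:**
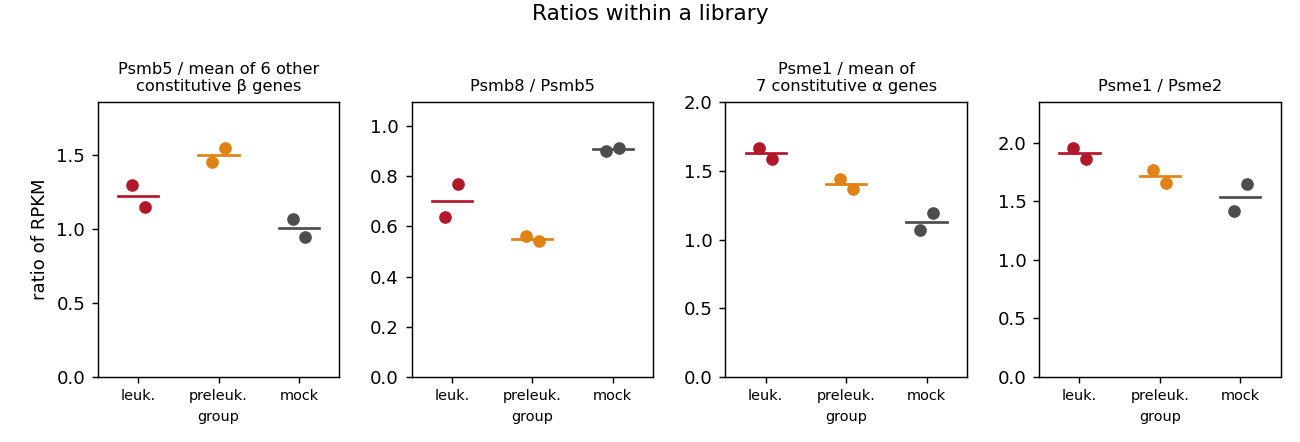
Ratios of RPKM within each library (y axes from 0) for Psmb5 over the mean of 6 other beta genes, Psmb8 over Psmb5, Psme1 over the mean of 7 alpha genes, and Psme1 over Psme2, in leukemia, preleukemia and mock (2 points per group, with a line at the mean). Psmb5 stands highest relative to its ring in preleukemia (1.45 and 1.55), and Psme1 relative to the alpha ring stands highest in leukemia (1.67 and 1.59).

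Genes around the proteasome were counted from lists of the same kind. The shares of all genes to set beside these counts are those given above. In leukemia 13.5% of all genes fell against mock and 13% against preleukemia. In preleukemia against mock 6.02% fell and 13.5% rose. Of the 3 immunoproteasome genes 1 fell in leukemia against mock and 1 in leukemia against preleukemia, and none passed in preleukemia against mock (0 also at an unadjusted p under 0.05). Psmb8 had 31.4 and 31.8 RPKM in leukemia libraries, 37.8 and 37.7 RPKM in preleukemia libraries, and 46.6 and 40.5 RPKM in mock libraries, and fell by 0.45 ± 0.10 on the log2 scale in leukemia against mock (limma, adjusted p = 0.0211). Psmb9 had 12.7 and 11.7 RPKM in leukemia, 16.7 and 16.9 RPKM in preleukemia, and 15.0 and 15.3 RPKM in mock, and fell by 0.43 ± 0.10 in leukemia against preleukemia (adjusted p = 0.0265). Both were therefore lowest in leukemia, like most genes of the constitutive core.

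Of the 5 genes of core assembly, 2 fell and 3 did not pass in leukemia against mock, 1 fell in preleukemia against mock, and none passed in leukemia against preleukemia, where 2 were lower at an unadjusted p under 0.05. Pomp, the chaperone that helps the core to close, had 47.0 and 45.4 RPKM in leukemia libraries, 65.4 and 54.6 RPKM in preleukemia libraries, and 90.4 and 81.0 RPKM in mock libraries. The 3 groups did not overlap, and Pomp fell by 0.88 ± 0.12 in leukemia (limma, adjusted p = 0.00354) and by 0.51 ± 0.12 in preleukemia (adjusted p = 0.0277), each against mock. Its change in leukemia against mock was larger than that of any of the 10 members that fell. The fall of Pomp in leukemia passed under all 15 alternatives run, with adjusted p between 0.0025 and 0.0316; each other call on a pathway gene named here lost significance when at least 1 of the libraries was left out. Psmg1, an alpha-ring assembly chaperone, had 8.71 and 10.6 RPKM in leukemia, 15.1 and 13.2 RPKM in preleukemia, and 16.9 and 13.4 RPKM in mock, and fell by 0.60 ± 0.15 in leukemia against mock (adjusted p = 0.0305).

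Among 7 other proteins bound to the proteasome, 3 fell in leukemia against mock, 2 fell in leukemia against preleukemia, and 1 rose in preleukemia against mock. Txnl1, a thioredoxin-like protein of the cap, had 19.8 and 19.3 RPKM in leukemia libraries, 26.9 and 24.7 RPKM in preleukemia libraries, and 34.9 and 29.3 RPKM in mock libraries, without overlap, and fell by 0.68 ± 0.11 against mock (limma, adjusted p = 0.00784). Adrm1, a ubiquitin receptor, had 16.0 and 13.7 RPKM in leukemia, 18.3 and 17.7 RPKM in preleukemia, and 19.7 and 21.1 RPKM in mock, and fell by 0.43 ± 0.11 against mock (adjusted p = 0.0319). Shfm1, the smallest lid subunit, was highest in preleukemia, as Psmb5 was. It had 40.1 and 35.7 RPKM in leukemia, 55.1 and 56.2 RPKM in preleukemia, and 41.0 and 42.0 RPKM in mock, rose by 0.42 ± 0.10 in preleukemia against mock (adjusted p = 0.028) and fell by 0.55 ± 0.10 in leukemia against preleukemia (adjusted p = 0.0125). The rise of Shfm1 did not pass after quantile normalization (adjusted p = 0.0518). Uchl5, a deubiquitinase of the cap, had 24.7 and 22.7 RPKM in leukemia, 31.1 and 32.2 RPKM in preleukemia, and 32.7 and 28.9 RPKM in mock, and fell by 0.40 ± 0.10 in leukemia against preleukemia (adjusted p = 0.041).

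Of 6 genes that regulate the proteasome genes or add to the particle under stress, 1 fell in leukemia against mock, 1 fell in preleukemia against mock and none passed in leukemia against preleukemia, where 1 was higher and 1 lower at an unadjusted p under 0.05. Zfand2a, an arsenite-inducible proteasome-binding protein, had 5.13 and 4.96 RPKM in leukemia libraries, 6.07 and 8.34 RPKM in preleukemia libraries, and 7.71 and 13.9 RPKM in mock libraries, with the mock libraries far apart, and fell by 0.91 ± 0.26 in leukemia against mock (limma, adjusted p = 0.0437). Zfand5, a proteasome-activating zinc finger protein, had 24.0 and 23.6 RPKM in leukemia, 18.6 and 17.3 RPKM in preleukemia, and 23.3 and 30.0 RPKM in mock, and fell by 0.54 ± 0.13 in preleukemia against mock (adjusted p = 0.0352). Nfe2l1, the transcription factor that raises proteasome genes when the proteasome is inhibited, had 18.9 and 17.5 RPKM in leukemia, 22.6 and 21.9 RPKM in preleukemia, and 19.0 and 17.1 RPKM in mock. It was highest in preleukemia, with a log2 change of 0.29 ± 0.10 against mock that did not pass (adjusted p = 0.0941). This gene was chosen after its values were seen. None of the 6 genes that supply or activate ubiquitin and none of the 8 shuttle and unfolding genes passed in any comparison; at an unadjusted p under 0.05, 3 and 1 of them differed in leukemia against mock, 1 and 2 in leukemia against preleukemia, and 2 and 2 in preleukemia against mock.

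Promoter windows of the members were searched for sequence elements tied to proteasome genes: CCAAT, bound by NF-Y, and TGACNNNGC, the core of the antioxidant response element bound by Nfe2l1 and Nfe2l2. RefSeq gave 36 promoters for 33 members (GRCm38.p6), and Psma8, Psmb1, Psmb2, Psmb7, Psmc3, Psmd3 and Psmd7 had none in the table. In the 250 bases before the start, on both strands, CCAAT was found in 13 of the 36 promoters (36.1%), against 33.8% of 32851 promoters. TGACNNNGC was found in 5 of 36 (13.9%), against 10.2% of all promoters, in Psmb5, Psmb6, Psmc6, Psmd9 and Psmd12. No promoter of a member held both motifs. The windows of 4 genes with different patterns are shown 5′ to 3′ on the gene's strand, with a motif on either strand in capitals: Psmb5 at chr14:54617996-54618245 on the minus strand, which was highest in preleukemia; Psmb6 at chr11:70525107-70525356 on the plus strand, a proteolytic subunit that passed in no comparison; Psma3 at chr12:70974373-70974622 on the plus strand, lowest in leukemia, with CCAAT; and Psmd6 at chr14:14120946-14121195 on the minus strand, lowest in leukemia, with no match.
Psmb5: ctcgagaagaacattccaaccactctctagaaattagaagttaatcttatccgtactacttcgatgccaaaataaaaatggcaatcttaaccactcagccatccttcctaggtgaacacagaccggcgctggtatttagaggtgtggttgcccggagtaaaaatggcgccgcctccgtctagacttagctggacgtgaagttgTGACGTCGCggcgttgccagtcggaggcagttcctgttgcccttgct
Psmb6: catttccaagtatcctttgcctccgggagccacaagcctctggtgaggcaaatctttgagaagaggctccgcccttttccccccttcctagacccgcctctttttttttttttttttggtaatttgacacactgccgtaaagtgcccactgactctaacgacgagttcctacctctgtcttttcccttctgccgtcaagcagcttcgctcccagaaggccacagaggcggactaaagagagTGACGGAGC
Psma3: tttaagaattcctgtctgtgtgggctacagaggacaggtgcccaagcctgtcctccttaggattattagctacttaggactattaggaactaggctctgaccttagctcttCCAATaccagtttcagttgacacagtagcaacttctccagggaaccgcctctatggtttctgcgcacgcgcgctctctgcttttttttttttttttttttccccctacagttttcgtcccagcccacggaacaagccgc
Psmd6: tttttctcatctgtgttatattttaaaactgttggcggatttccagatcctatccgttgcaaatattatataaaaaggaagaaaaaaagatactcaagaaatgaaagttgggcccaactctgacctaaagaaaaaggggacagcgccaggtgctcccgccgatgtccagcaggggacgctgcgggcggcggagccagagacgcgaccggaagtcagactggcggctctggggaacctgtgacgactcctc
The element in Psmb5 lies 47 bases before the start and that in Psmb6 9 bases before it, while the CCAAT of Psma3 lies 139 bases before. Psmb5 and Psmb6 thus both held TGACNNNGC and differed in their levels across the groups. A match is a description of the letters and not a bound site.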

How the data were processed

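RNA was measured in 6 libraries of sorted cells, 2 per group. The deposited table holds 1 RPKM value per gene and library; the authors' unit is not named in the sources used here and was inferred from the values. Multiplied by GENCODE M21 exon lengths, values under 20 reads came within 0.02 of a whole read count in 64.0% to 65.8% of cases (4% by chance), which gave the depths in the text; 35428 rows (91%) matched. At these depths 3 reads on 1 kb were worth 0.139 to 0.177 RPKM, which covers counting error only. CASAVA 1.8.2 and the build GRCm38 appear in the submitters' processing notes; the aligner, counter and annotation were not stated. Per the labels' protocols, total RNA came from a Nucleospin kit and libraries from the NEB Next Ultra kit.

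Comparisons used limma 3.58.1 (R 4.3.3) on log2(RPKM + 1), for 10958 genes with at least 1 RPKM in 2 of the 6 libraries. All 6 libraries entered 1 fit of group means with a trended spread (3 residual degrees of freedom). Two-sided p-values received a Benjamini-Hochberg adjustment over all genes tested, with a threshold of 0.05. The procedure was tested on simulated data. The alternatives were pseudocounts of 0.1 and 5, no filter and a filter of 5 RPKM, quantile normalization, a TMM-like scaling computed from RPKM, a fit of 4 libraries, no trend, a replicate block, and leaving out each library. The log scale pulls the changes of weakly expressed genes towards 0. Values in every library are given for the catalytic subunits, the activators and, per class and comparison, up to 3 called members with the smallest adjusted p; of each list of other pathway genes, the 2 called genes with the smallest adjusted p are named. Members and lists were chosen with earlier results of these data known. Exons of 10 members overlap another gene in GENCODE M21, 2 of them on the same strand.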

Additional observations from a re-analysis of the deposited data

Results flagged for a closer look

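The comparison of leukemia with preleukemia sets Evi1 cells at 6 months against Evi1 cells at 4 weeks. The mock libraries, all at 4 weeks, cancel out of this difference, so no change in an effect of Evi1 is read from it. By that direct test (limma, adjusted over 10958 genes) 5 of the 39 tested members were lower in leukemia, 12.8% against 13% of all genes, so the count is about the general share. None of the 5 was called when a leukemia or a preleukemia library was left out, and 1 was called after quantile normalization. The log2 change in leukemia against preleukemia was -0.59 for Psmb5 (adjusted p = 0.022), -0.42 for Psma3 (adjusted p = 0.0313), -0.38 for Psmc3 (adjusted p = 0.0391), -0.35 for Psmb4 (adjusted p = 0.0439) and -0.39 for Psmd6 (adjusted p = 0.0486). There is no mock group at 6 months in the data used here, so the stage and the time after transplantation cannot be told apart.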

How the results depend on the processing

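With no filter on low values the members called numbered 0 in preleukemia against mock and 1 in leukemia against preleukemia, where more genes were tested. In leukemia against preleukemia 1 was called after quantile normalization, 2 after TMM-like scaling and 2 without a trend in the spread. Each of these settings called 17.4% of all genes. A fit of the 4 libraries compared called 16, Psma8 among them as higher, and 31.3% of all genes. That fit called 2 members in leukemia against mock, and 17.4% of all genes. The cause was not tested. The median log2 change of the members in leukemia against preleukemia was -0.22 with a pseudocount of 5, -0.14 after quantile normalization and -0.18 after TMM-like scaling; in preleukemia against mock it was -0.11 and -0.09 under these 2 scalings. With 1 library left out, the members called ranged over 0 to 20 in leukemia against mock, 0 to 16 in leukemia against preleukemia and 0 to 6 in preleukemia against mock, where a lone library is taken to vary like the others. Their median ranged over -0.35 to -0.21, -0.30 to -0.22 and -0.09 to 0.07. The replicate block gave 12, 8 and 2 calls against 10, 5 and 1. The deviations of libraries with the same number correlated at 0.12 for mock and preleukemia, 0.01 for mock and leukemia and 0.18 for preleukemia and leukemia, so the numbers were not read as pairs. Of the 16 calls on named members, 147 of 240 recomputed values kept the direction and the call, and the other 93 lost the call; the change of Psma8 in preleukemia against mock reversed, to 1.07 without mock 1, was -1.28 without mock 2, and was 0.89 with a pseudocount of 0.1.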
